A study of Mus musculus with 2 samples.

Results

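The Hox genes are the 39 protein-coding mouse genes whose symbol is Hoxa, Hoxb, Hoxc or Hoxd followed by a number. Earlier results of these data were known when they were chosen, but no measured value entered the rule. The 39 genes were chosen by symbol alone from the RefSeq annotation of GRCm38.p6, among 21887 protein-coding genes on the assembled nuclear chromosomes. They lie in 4 clusters, with 11 genes in the Hoxa cluster on chromosome 6, 10 in Hoxb on chromosome 11, 9 in Hoxc on chromosome 15 and 9 in Hoxd on chromosome 2. The number in a symbol is the paralogue group. Groups 1 to 4 are called anterior here (12 genes), groups 5 to 8 central (11 genes) and groups 9 to 13 posterior (16 genes).

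The data are 1 list of peaks from chromatin immunoprecipitation and sequencing (ChIP-seq) with an antibody against Usp16, and the study made 1 further library with IgG. The cells were hematopoietic stem and progenitor cells of mouse bone marrow positive for ckit and sca1. Both libraries came from Mx1 Cre:Usp16loxp/loxp mice, in which the interferon-responsive Mx1 promoter drives the Cre recombinase and both Usp16 alleles are flanked by loxP sites. The labels give neither the age of the mice nor whether Cre had been induced, so the amount of Usp16 left in the cells is not known here. A peak list holds no expression values, so the cells could not be checked against their markers. With 1 library per antibody there was no replicate and no test across samples: every share below describes this list, and its exact 95% interval covers counting error only.

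Hox genes encode homeodomain transcription factors that set the identity of body segments along the head-to-tail axis. Genes of a cluster are transcribed in one direction, and their order on the chromosome follows the order of their expression domains, from anterior groups to posterior groups. In blood, Hoxa9 and Hoxb4 are known for driving the expansion of stem and progenitor cells, and Hoxb5 marks long-term stem cells in mice. Polycomb repressive complex 1 silences Hox genes and places ubiquitin on histone H2A, and Usp16 is an enzyme that removes ubiquitin from H2A. In human cells USP16 has been linked to HOX gene expression.

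Of the 5046 peaks on assembled chromosomes, 5 lay in the Hox clusters, counted from the first to the last Hox gene with 10 kb added on each side. The Hoxc cluster held 3 of them, the Hoxa and Hoxd clusters held 1 each, and the Hoxb cluster held none. Each of the 5 peaks overlapped a Hox gene: Hoxa9, Hoxc10, Hoxc5, Hoxc4 and Hoxd3.

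**Figure D1:**
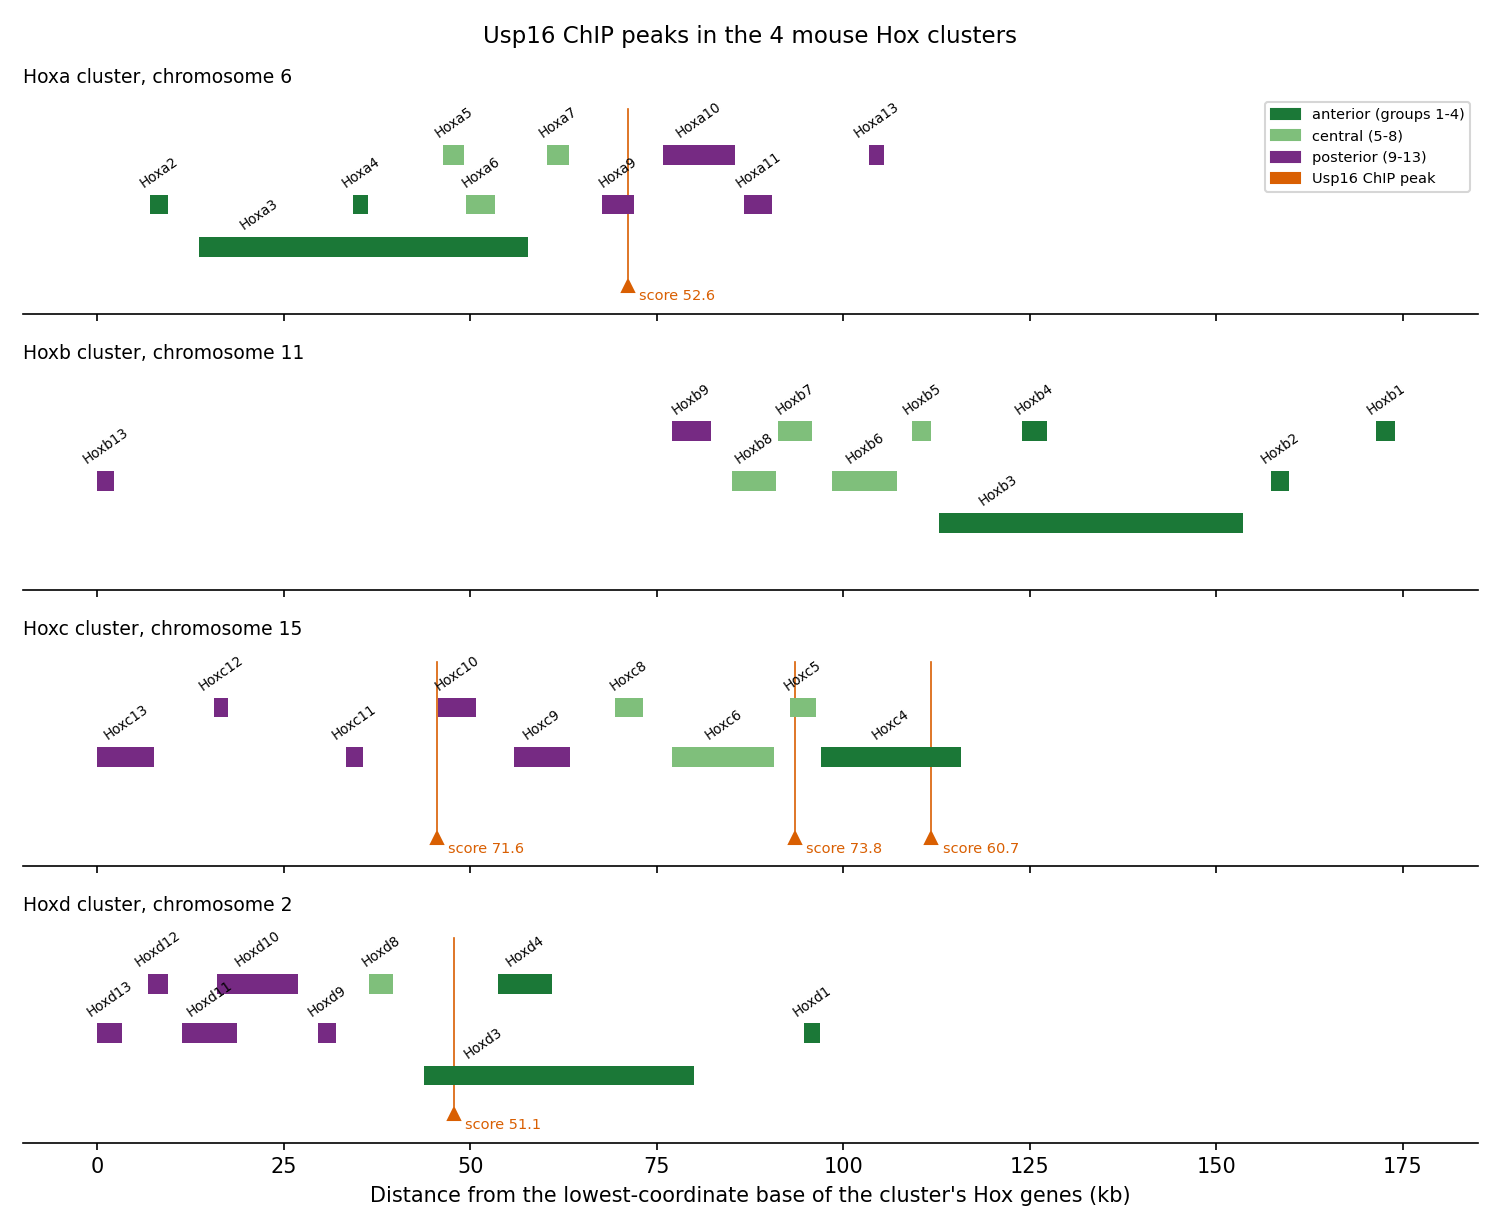
Map of the 4 Hox clusters, with distance in kb along each cluster from its lowest-coordinate Hox base on the horizontal axis, genes as bars coloured by paralogue class and peaks as orange lines ending in triangles with their scores. Hoxc holds 3 peaks, Hoxa and Hoxd hold 1 each and Hoxb holds none, and 1 Hoxa gene is not drawn.

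The sequences shown are those on which a peak fell or beside which it stopped. The RefSeq promoter table for GRCm38.p6 gives 300 bases for each start, from 250 before to 50 after it, and 22 of the 39 Hox genes matched it by gene ID. The first sequence is the promoter of Hoxd3os1, a long non-coding RNA (lncRNA) gene read from the opposite strand to Hoxd3, at chr2:74716081-74716380 on the minus strand. Its capitals mark the 293 bases covered by the Hoxd peak. The second is the promoter of Hoxa9 at chr6:52227321-52227620 on the minus strand, shown because the Hoxa peak stopped 205 bases short of it, and its capitals mark the 4 CpG dinucleotides.
Hoxd3os1: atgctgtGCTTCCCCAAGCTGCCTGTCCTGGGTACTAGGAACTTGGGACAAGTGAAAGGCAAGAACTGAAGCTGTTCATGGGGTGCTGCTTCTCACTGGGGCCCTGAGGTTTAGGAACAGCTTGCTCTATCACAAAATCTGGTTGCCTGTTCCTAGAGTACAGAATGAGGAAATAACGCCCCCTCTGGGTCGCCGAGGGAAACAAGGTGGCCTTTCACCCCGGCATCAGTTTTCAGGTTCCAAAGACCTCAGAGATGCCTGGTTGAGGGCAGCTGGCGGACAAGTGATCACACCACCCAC
Hoxa9: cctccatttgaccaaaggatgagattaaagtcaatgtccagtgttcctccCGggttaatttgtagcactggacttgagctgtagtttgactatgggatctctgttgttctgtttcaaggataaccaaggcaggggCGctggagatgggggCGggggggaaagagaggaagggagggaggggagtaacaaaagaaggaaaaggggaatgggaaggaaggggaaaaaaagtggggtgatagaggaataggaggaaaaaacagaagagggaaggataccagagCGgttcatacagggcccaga

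The clusters also hold 6 microRNA genes, and their mature 5p sequences from the RefSeq table, with miR-615-3p beside them, are given with the seed, bases 2 to 8, in capitals. The 5p sequences of miR-10a and miR-10b share one seed and those of miR-196a and miR-196b share another, while the arms of miR-615 have seeds of their own. Mir196a-1 in Hoxb and Mir196a-2 in Hoxc give the same 5p sequence.
miR-10a-5p: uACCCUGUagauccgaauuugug
miR-10b-5p: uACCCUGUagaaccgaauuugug
miR-196a-5p: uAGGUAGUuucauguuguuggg
miR-196b-5p: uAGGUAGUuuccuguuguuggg
miR-615-5p: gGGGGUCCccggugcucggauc
miR-615-3p: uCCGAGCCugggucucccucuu

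Of these microRNA genes Mir615 was the 1 of 6 with a peak within 1 kb of an end, against 3.34% of all miRNA genes. The peak in Hoxc5 covered 59 bases of the annotated Mir615 gene, including all 22 bases of miR-615-5p, and it ended on the base just before miR-615-3p. Mir196b lay 2.97 kb from the Hoxa9 peak, Mir196a-2 lay 6.28 kb from the Hoxc10 peak and Mir10b lay 9.70 kb from the Hoxd3 peak. Mir10a and Mir196a-1, both in the Hoxb cluster, lay 287 and 339 kb from the nearest peak.

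The posterior genes with a gene-end peak were Hoxa9 and Hoxc10. A gene-end peak is one that overlaps, by 1 bp or more, the window of 1 kb to either side of an end of the gene. The Hoxa9 peak (chr6:52225927-52227116) lay wholly inside the gene (chr6:52223097-52227370). It stopped 254 bases from the gene's start on the minus strand. Its score, the authors' own value for each peak, was 52.6, where the lowest score listed is 50, so this peak sits close to the lower limit of the list. It was the widest of the 5, at 1190 bp, and 89.7% of all peaks were narrower. The start of the lncRNA gene Gm52902, which runs the other way, lies 134 bases from that of Hoxa9, and the same peak was 388 bases from it.

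Hoxc10, a gene of the lumbar part of the body axis, was the only Hox gene with a peak across one of its ends. That peak (chr15:102966255-102967066) covered the lower end of the gene (chr15:102966796-102971898), with 271 of its 812 bases inside. It had a score of 71.6, which ranked 2396 of the 5046 peaks. The strand of Hoxc10 is not given in the sources used here. Hoxc4 in the same cluster is on the plus strand, and in that direction the lower end would be the start of Hoxc10.

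The central gene with a gene-end peak was Hoxc5. Its peak (chr15:103014402-103014968) lay wholly inside the gene (chr15:103014008-103017429), beginning 394 bases from the lower end, and was the one that reached Mir615. With 73.8 it had the highest score of the 5, and with 567 bp it was the narrowest.

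No anterior gene had a gene-end peak, but Hoxc4 and Hoxd3 each held a peak inside. Hoxc4 activates the gene of the antibody-diversifying enzyme AID in mouse B cells. The peak in Hoxc4 (chr15:103032596-103033287, score 60.7) lay 3569 bases from the upper end of the gene (chr15:103018097-103036856). The annotated start of Hoxc4 in the promoter table was 1108 bases beyond that peak. Closer to it were 3 of the 4 annotated starts of Gm30528, an lncRNA gene on the other strand, at 316 to 322 bases.

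Hoxd3, which shapes the first neck vertebrae in mice, had its peak (chr2:74715675-74716373, score 51.1) at 3.68 kb from its start (gene at chr2:74711993-74748271). That peak covered the start of Hoxd3os1, whose promoter is shown above. Only 4.12% of peaks scored lower.

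Over the 5 peaks the score ranged from 51.1 to 73.8 with a median of 60.7, against a median of 69.9 over the 5046 peaks. Of the 5, the peaks at Hoxc5 and Hoxc10 scored above that median. Their widths, from 567 to 1190 bp with a median of 699 bp, stood beside a median of 683 bp over the list.

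**Figure D2:**
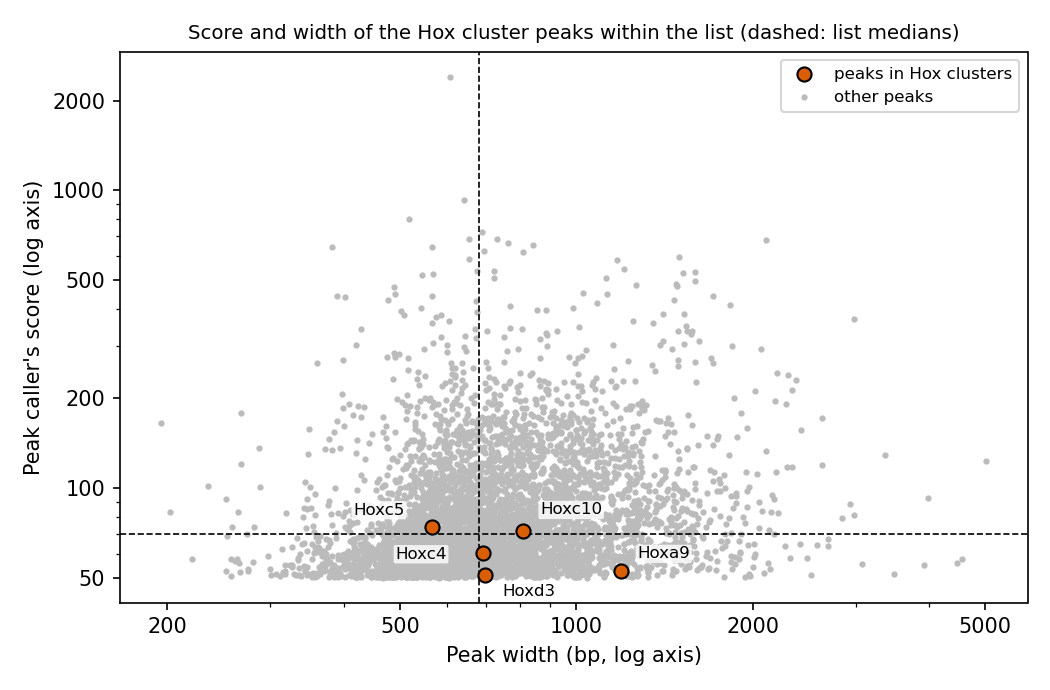
Score against width in bp, both on log axes, for the 5 peaks in Hox clusters (orange, named by the gene they overlap) and all other peaks on assembled chromosomes (grey), with the list's medians as dashed lines. The Hox cluster peaks sit between 51.1 and 73.8 on the score axis, in the lower and middle part of the list.

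Gene-end peaks were counted at 3 of the 39 Hox genes (7.69%, interval 1.62 to 20.9%), against 13.9% of all protein-coding genes. With a window of 5 kb the count was 7 of 39 (17.9%, interval 7.54 to 33.5%), against 18.3%. A peak overlapped 5 of 39 genes (12.8%, interval 4.30 to 27.4%), against 16.7% of all protein-coding genes. All 3 intervals include the share of all protein-coding genes, so no difference from it was detectable with 39 genes. Hox genes are short, with a median length of 3.74 kb against 17.2 kb over all protein-coding genes.

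The 1 kb limit fell in a wide gap: Hoxc5 at 0.394 kb was the farthest gene inside it, and Hoxc6 at 2.52 kb was the nearest outside. The genes added at 5 kb were Hoxc6, Hoxc4 at 3.13 kb, Hoxd3 at 3.68 kb and Hoxa10 at 4.08 kb, and the nearest beyond 5 kb was Hoxd4 at 5.61 kb. Hoxc6 was counted through the Hoxc5 peak, Hoxa10 through the Hoxa9 peak, and Hoxc4 through both the Hoxc5 peak and the peak inside it, so all 5 peaks lay behind the 7 genes.

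The share with a gene-end peak was 0 of 12 for anterior genes (interval 0 to 26.5%), 1 of 11 for central genes (9.09%, interval 0.23 to 41.3%) and 2 of 16 for posterior genes (12.5%, interval 1.55 to 38.3%). At 5 kb the counts were 2 of 12 anterior genes (16.7%, interval 2.09 to 48.4%), 2 of 11 central genes (18.2%, interval 2.28 to 51.8%) and 3 of 16 posterior genes (18.8%, interval 4.05 to 45.6%). The intervals of the 3 classes overlap widely at both windows. The anterior and posterior shares lay closer together at 5 kb than at 1 kb, because Hoxc4 and Hoxd3 came in. Genes of one cluster share peaks and are not replicates of a class.

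By cluster, gene-end peaks were counted at 1 of 11 Hoxa genes (9.09%), 0 of 10 Hoxb genes, 2 of 9 Hoxc genes (22.2%, interval 2.81 to 60.0%) and 0 of 9 Hoxd genes. At 5 kb they were counted at 2 of 11 Hoxa, 0 of 10 Hoxb, 4 of 9 Hoxc and 1 of 9 Hoxd genes. The intervals at 1 kb reached up to 41.3% for Hoxa, 30.8% for Hoxb and 33.6% for Hoxd and so overlapped that of Hoxc, and an order of the clusters was not detectable from these counts.

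**Figure D3:**
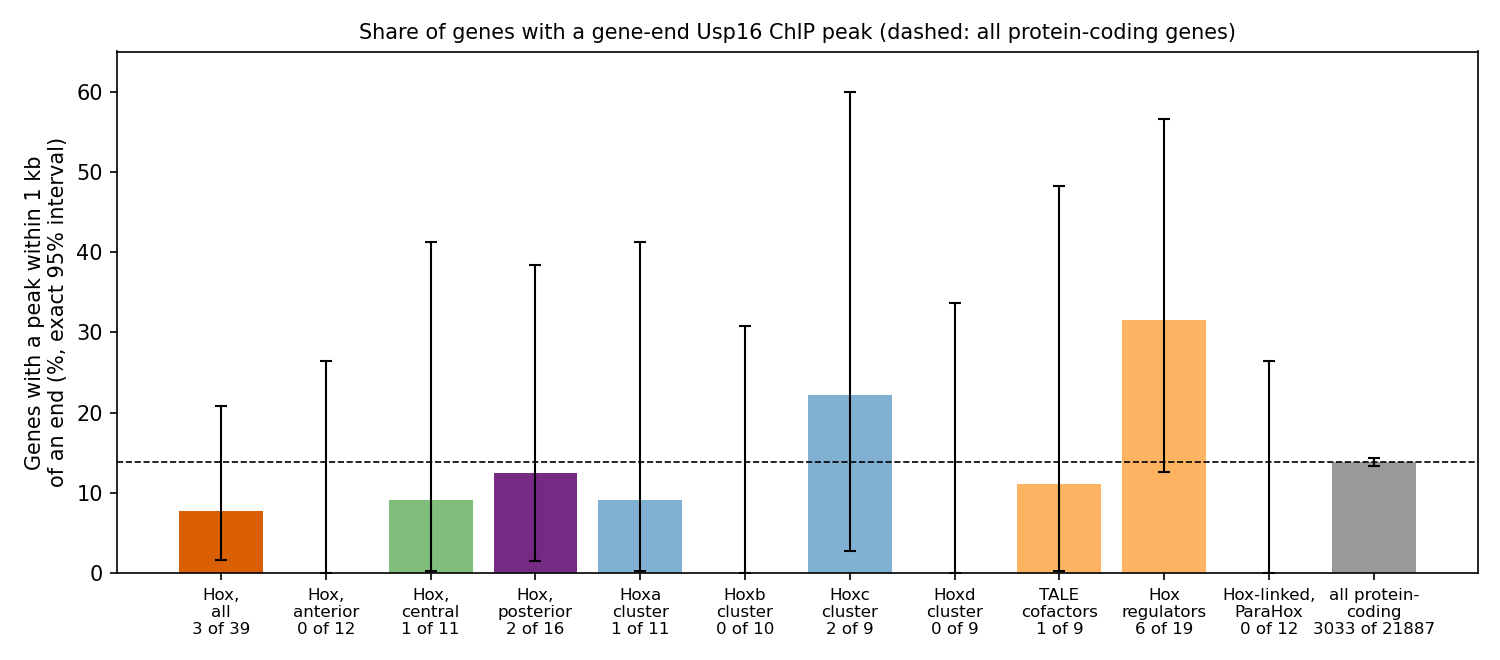
Percentage of genes with a peak within 1 kb of an end for Hox genes in all, by paralogue class and by cluster, for 3 lists of related genes and for all protein-coding genes (dashed line), with exact 95% intervals as error bars and counts under each bar. The intervals of the Hox groups all reach across the 13.9% of all protein-coding genes.

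Distance to the nearest peak was longest in the Hoxb cluster, where all genes measure it to the same peak and are not separate observations. The 10 Hoxb genes lay 236 to 408 kb from that peak, with Hoxb1 nearest and Hoxb13 farthest. No gene of the other 3 clusters that is reported here was farther than 61.1 kb from a peak. The share of all protein-coding genes as far from a peak as the Hoxb genes was not counted. The stem cell genes Hoxb4 and Hoxb5 were 283 and 298 kb from a peak. The ranges of the Hoxc (0 to 37.4 kb) and Hoxd (3.68 to 46.6 kb) genes overlapped each other and that of the Hoxa genes, which ran from 0.254 to 61.1 kb with 1 gene left out that is not reported here.

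The median distance was 53.9 kb for anterior, 20.1 kb for central and 24.1 kb for posterior genes. Without the Hoxb genes these medians were 23.5 kb (8 genes), 7.74 kb (7 genes) and 18.0 kb (14 genes). Over all 39 genes the median was 27.6 kb, against 78.3 kb over all protein-coding genes. Genes of a cluster measure their distance to the same few peaks, so these values follow the positions of the peaks at Hoxa9, Hoxc10, Hoxc5 and Hoxd3 and of the peak beyond Hoxb1. With the nearer end taken for each gene, the peak inside Hoxc4 was the nearest peak of no Hox gene.

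Paralogues of one group lay at different distances from a peak in different clusters. In group 9, Hoxa9 lay 0.254 kb from a peak, Hoxc9 9.97 kb, Hoxd9 15.5 kb and Hoxb9 328 kb. In group 10, Hoxc10 lay at 0 kb, Hoxa10 at 4.08 kb and Hoxd10 at 20.6 kb. In group 4, Hoxc4 lay at 3.13 kb, Hoxd4 at 5.61 kb, Hoxa4 at 34.2 kb and Hoxb4 at 283 kb. In group 5, Hoxc5 lay at 0.394 kb, Hoxa5 at 21.3 kb and Hoxb5 at 298 kb. In each of these groups that has a Hoxb member, that member was the farthest. The group 13 genes, which pattern the ends of the limbs and the hind part of the trunk, were each over 30 kb away, at 31.7 kb for Hoxa13, 37.4 kb for Hoxc13, 44.1 kb for Hoxd13 and 408 kb for Hoxb13.

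**Figure D4:**
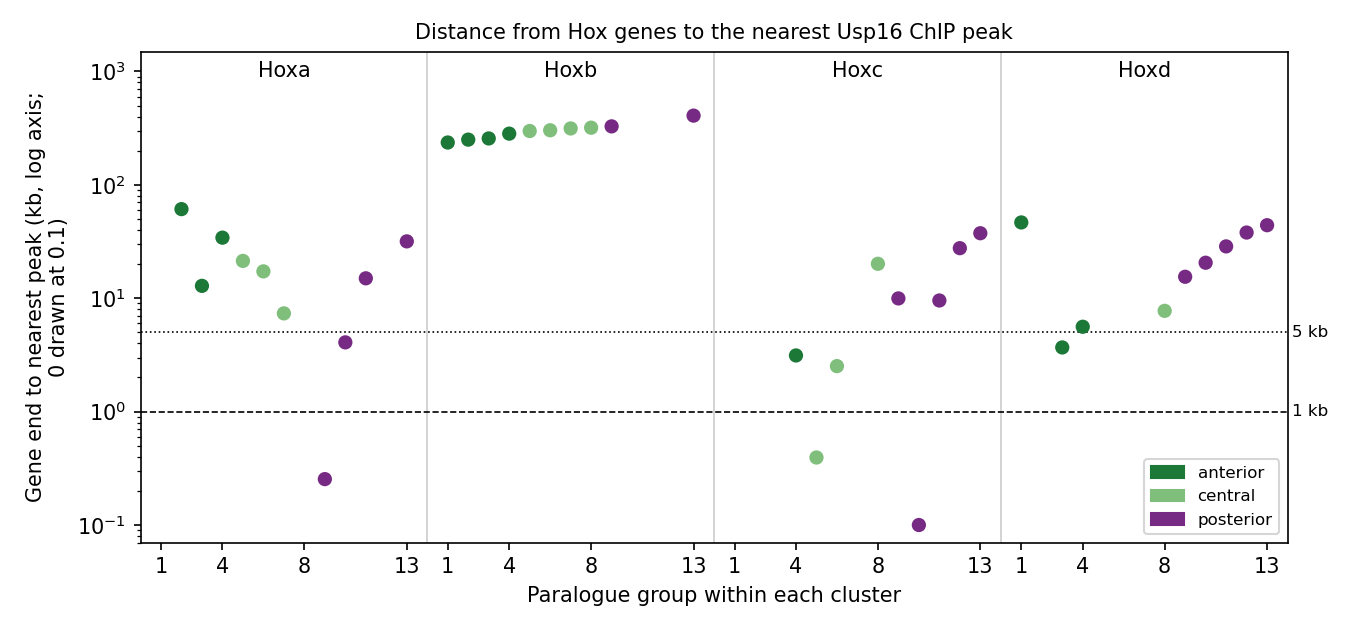
Distance in kb (log axis) from either end of each Hox gene (1 Hoxa gene is not drawn) to the edge of the nearest peak, by paralogue group within each cluster, coloured by class, with a distance of 0 drawn at 0.1 and lines at 1 and 5 kb. All 10 Hoxb genes sit at 236 kb or more, and Hoxa9, Hoxc5 and Hoxc10 are the 3 points below 1 kb.

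Per length of DNA, the 4 clusters together held 8.74 peaks per Mb (5 in 572 kb, exact Poisson interval 2.84 to 20.4), against 1.87 per Mb over the annotated span of all chromosomes. The Hoxc span of 136 kb had 22.1 peaks per Mb (interval 4.56 to 64.6) and the Hoxd span of 117 kb 8.55 (interval 0.22 to 47.7). The Hoxa span of 126 kb had 7.97 per Mb (interval 0.20 to 44.4), and the Hoxb span of 194 kb had 0 (upper bound 19.0). The intervals of the 4 clusters overlap.

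Per gene the order of the 2 values turned round, because the clusters hold 68.2 Hox genes per Mb against 8.10 protein-coding genes per Mb over all chromosomes. The clusters held 0.128 peaks per Hox gene (interval 0.042 to 0.299), against 0.231 peaks per protein-coding gene over all chromosomes. The interval includes the 0.231, so no difference per gene was detectable. For scale, 20.7% of consecutive tiles of 150 kb over the chromosomes held 1 peak midpoint or more, and 1.44% held 3 or more, as the Hoxc span did. The tiles were not matched to the clusters in gene number.

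The peak-free stretch around the Hoxb cluster ran for 1190 kb, from a peak 780 kb below Hoxb13 to one 236 kb above Hoxb1. Of the 5025 gaps between neighbouring peaks, 11.7% were longer, and the median gap was 190 kb. This share counts each gap once, whatever its length. Long gaps cover more of the chromosomes, so the share of chromosome length in gaps this long is larger, and it was not computed. Outside the other clusters the nearest peaks were 128 kb or more from the Hox genes, so a flank of 50 kb in place of 10 kb added none.

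None of the 24 RefSeq promoter windows of the 22 matched Hox genes was overlapped by a peak (0%, interval 0 to 14.2%), against 12.5% of promoter windows of all protein-coding genes. Promoter windows with a peak were richer in CpG over all protein-coding genes, with a median of 22 CpG against 10 in windows without one. The Hox windows had a median of 14.5 CpG, from 4 at Hoxa9, Hoxd4 and one start of Hoxd11 to 45 at Hoxa13. Among the windows with 10 CpG or more, 0 of 17 Hox windows had a peak (interval 0 to 19.5%), against 20.8% of such windows of all protein-coding genes. Among those with 15 or more it was 0 of 12 (interval 0 to 26.5%), against 21.9%. Both CpG limits were chosen after the data were seen. Neighbouring windows are not independent, the list stops at a score of 50, and the promoters of Hoxc10 and Hoxc5 are not among the 24. The peak across the lower end of Hoxc10 could thus not be counted here.

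A motif bound by Hox and Pbx proteins together, TGATTTAT, was in none of the 24 windows on either strand, and in 0.81% of all protein-coding promoter windows. The Meis core motif TGACAG was in 2 of 24, at Hoxa2 and Hoxa3, and in 18.7% of all. Neither motif contains the other, and no match says only that these letters are not in the window.

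The cluster spans also hold 27 lncRNA genes, of which 2 had a gene-end peak, against 4.13% of all lncRNA genes. They were Gm52902 beside Hoxa9 and Hoxd3os1, which overlaps Hoxd3 in part, both described above. Hotair in Hoxc and Hottip and Hotairm1 in Hoxa, lncRNAs studied as regulators of Hox genes, lay 18.3, 35.7 and 63.9 kb from the nearest peak.

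Lists of related genes, given here and in the paragraphs on regulator and homeobox genes, were drawn up with earlier results of these data known. The TALE proteins Pbx, Meis and Pknox bind DNA together with Hox proteins. Of their 9 genes 1 had a gene-end peak (11.1%, interval 0.28 to 48.2%), near the 13.9% of all protein-coding genes. It was Pknox1, with a peak of score 74.1 at 0.10 kb from its lower end. Meis1, the partner of Hoxa9 in leukaemia, had its nearest peak 330 kb away, Meis2 96.2 kb, Meis3 53.5 kb and Pbx2 49.3 kb.

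Of 19 genes for proteins that act on Hox transcription, 6 had a gene-end peak (31.6%, interval 12.6 to 56.6%), and the interval includes the 13.9% of all protein-coding genes. They were the histone methyltransferase genes Kmt2a (score 75.7) and Kmt2b (104, a peak also at an end of Zbtb32), the core subunit genes of their complexes Rbbp5 (221) and Wdr5 (152), the chromatin reader gene Psip1 (105) and the acetyltransferase gene Kat6a (194). Each of these 6 peaks lay across an end of its gene, and each scored above the highest of the Hox cluster peaks. Of all peaks in the list, 55.5% scored below that highest Hox cluster peak, so many others also scored above it. Dot1l and Kdm6b had a peak 2.42 and 1.52 kb from an end, at the ends of other genes. With these the count at 5 kb was 8 of 19 (42.1%, interval 20.3 to 66.5%). That interval lies above the 18.3% of all protein-coding genes at 5 kb. The list was drawn up with earlier results known, and the genes added at 5 kb have peaks at the ends of other genes. No enrichment is therefore read from it. The remaining 11 had none within 5 kb of an end, among them Ash1l, Ash2l, Cdx2 and Cdx4, with Cdx4 at 295 kb. Of the genes named without a gene-end peak, Ash2l held a peak inside (score 55.4), and so did Kdm6b.

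None of 12 homeobox genes linked to the Hox clusters or related to them had a gene-end peak at 1 or 5 kb (interval 0 to 26.5%), against 13.9% and 18.3% of all protein-coding genes, which both lie inside the interval. Among the 12 were En1, En2, Evx1 and Evx2. Evx2, next to Hoxd13, was 54.2 kb from a peak and Evx1, beyond Hoxa13, 86.4 kb.

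Of the 8 protein-coding genes that border the clusters, 2 had a gene-end peak (25.0%, interval 3.19 to 65.1%), and the interval includes the 13.9% of all protein-coding genes. Skap2, an adaptor protein gene beside the Hoxa cluster, had one 0.798 kb from its lower end (score 62.6), and Calcoco1, below Hoxc13, had one across its upper end (score 66.7). Smug1, a DNA repair glycosylase gene above Hoxc4, and Skap1, an adaptor protein gene above Hoxb1, each held a peak inside, of score 61.9 and 82.3. Evx1, Evx2, Mtx2 above Hoxd1 and Ttll6 below Hoxb13 were not overlapped by a peak, and Ttll6 lay 438 kb from one.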

How the data were processed

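Peak calling used MACS in Galaxy, per the file headers. Bowtie, Picard and the build mm10, which GRCm38 corresponds to, are named without versions in the submitters' processing notes. The deposited score is the authors' own value for each peak, on a scale not given in the sources used here, and neither the MACS settings nor the role of IgG in the call is given there. It was used only within this list. Read depth is unknown, and the IgG signal was not analysed here.

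Positions are counted from 1. The 5046 of 5079 peaks on assembled chromosomes were compared with RefSeq genes of GRCm38.p6 using Python 3.11.15, pandas 2.3.3 and scipy 1.17.1. Distances run from a gene end to the nearest base of a peak. The gene table has no strand, so starts come from the promoter table. The overlap code was checked on peaks placed at known gene ends. Intervals are exact Clopper-Pearson or Poisson intervals, and no test was made.

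The members and lists were chosen with earlier results of these data known. All Hox genes were counted, and list genes were named where they had a gene-end peak, with up to 4 others in alphabetical order and Meis1, Kmt2a and Cdx4. Some genes that this selection covers are not reported here. Alternatives varied the score limit, windows, overlap rule, merging, flanks and classes. The IgG library has no values here.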

Additional observations from a re-analysis of the deposited data

How the results depend on the processing

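With only the peaks at or above the list's median score, 2 of the 5 peaks in the clusters were left, those at Hoxc5 and Hoxc10. Gene-end peaks were then counted at 2 of 39 Hox genes, 1 of them posterior. The share of all protein-coding genes fell to 7.99% at the same limit. The count of 5 was the same with no flank, a flank of 50 kb, midpoints and peaks within 1 kb merged. Gene-end peaks were counted at 7 Hox genes with a window of 5 kb and 12 with one of 10 kb (22.4% of all protein-coding genes at 10 kb), and at 1 of the 22 genes with a known start, Hoxa9, when the 5' end alone was used (14.2% of all protein-coding genes). That 1 is also the posterior count on 9 genes with a known start. The fall over all Hox genes comes from the absence of Hoxc5 and Hoxc10 from the 22, and the posterior fall from that of Hoxc10 alone. For anterior genes the count was 2 with a window of 5 kb, 1 when groups 1 to 5 were called anterior and 1 with groups 1 to 8, through Hoxc5. No peak overlapped a Hox promoter window at either CpG limit, and the second limit was added after the data were seen. The counts for the 3 related lists stayed within 1.5 times under every setting tried, but the share of all protein-coding genes beside them moved. At the score limit the regulator genes kept 6 of 19 (interval 12.6 to 56.6%), which then lay above the 7.99%. The intervals of the TALE and homeobox lists still included it. The lists were drawn up with earlier results known, so no enrichment is read from this. No paired analysis was possible because each antibody has 1 library. Peaks below a score of 50 are not listed, so an absent peak is not evidence of absent binding, and single counts of 0 to 7 genes set wide intervals.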
